A study of Mus musculus with 27 samples.

Results

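The core circadian clock of the mouse heart is described here by 10 genes matched by symbol to the array's probe annotation: Arntl (also called Bmal1), Clock, Npas2, Per1, Per2, Per3, Cry1, Cry2, Nr1d1 and Nr1d2. Of these 10 genes 9 had a probe set of their own, 1 each, among the 19937 genes compared, and Npas2 was not analysed here. Transverse aortic constriction (TAC) narrows the aortic arch and makes the heart pump against a raised pressure. JQ1 inhibits the BET bromodomain proteins, which bind acetylated chromatin and help RNA polymerase II leave the promoter. The 27 arrays form 9 groups of 3: TAC with JQ1, TAC with dmso vehicle, and sham surgery with dmso vehicle, each at days 3, 11 and 28 after surgery. All were C57Bl/6J male littermates of 10 to 12 weeks, and injections began 1.5 days after the operation. TAC left a pressure gradient of about 50 mmHg per the labels, and RNA came from a piece of heart of 10 to 20 mg. There was no sham group with JQ1 among the labelled groups, so JQ1 can be compared only within TAC.

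The clock is a feedback loop of transcription. ARNTL pairs with CLOCK (or with NPAS2) and drives genes that carry an E-box, among them the Period and Cryptochrome genes, and the PER and CRY proteins return to the nucleus and inhibit that pair. A second loop runs through the nuclear receptors NR1D1 and NR1D2 (REV-ERB alpha and beta), which repress Arntl at ROR elements and are themselves E-box targets. Cardiomyocytes keep such a clock, and in heart the messages of Arntl and of the Period and Nr1d genes peak at opposite times of day. The mice were kept under a standard light and dark cycle, and the labels give no hour of tissue collection. Whether the groups were collected at the same hour cannot be told from the labels, and its part in the differences below was not tested.

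Levels are the log2 signal as the authors deposited it, and a difference of 1 on that scale is a doubling. One moderated linear model (limma) with a mean for each group was fitted to all 19937 genes, and a gene was called where its p-value, adjusted over all of them by the Benjamini-Hochberg method, was under 0.05. Differences are given ± the standard error of that fit, and levels ± SD over 3 arrays. The p-values measure the spread between these arrays, since the labels do not say in so many words that each array is a separate animal. As checks of the labels, Hexim1, which rises under BET inhibition, was 1.77 to 1.94 higher in TAC JQ1 than in TAC vehicle on the 3 days, and Nppa, the atrial natriuretic peptide, was 1.44 to 1.82 higher in TAC vehicle than in sham. The 8 cardiomyocyte markers had a mean level of 13.34 to 13.51 over the arrays. One array stood apart for these genes. Replicate 1 of TAC JQ1 at day 3 had the highest signal of all 27 arrays for Arntl (8.23), Per1 (10.27), Cry1 (8.28) and Cry2 (9.53), and day 3 differences of TAC JQ1 that rest on it are given with and without it.

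The short motifs through which the loop is known to act are shown first, as sequence context for 4 of the genes described below. RefSeq promoter windows of GRCm38.p6 (250 bases before to 50 bases after a start site) were found for 9 of the 10 genes, and Per2 had no entry. Windows were searched on both strands for the E-box CACGTG and the D-box TTANGTAA (bound by DBP, TEF, HLF and NFIL3). The third motif, called the ROR core below, was TNGGTCA, read as TGACCNA on the opposite strand. It is a loose form, with its second base left open, of the element bound by NR1D1, NR1D2 and the ROR receptors. Binding at the matches was not tested. None of these 3 motifs overlaps another in the sequences printed, and the capitals mark the matches. The E-box letters were in the windows of 8.09% of all 27025 genes, the D-box in 2.72% and the ROR core in 12.4%. Among these 9 genes, Npas2 included, the E-box was found in Per1 and Cry1, the D-box in Per3 (at 2 places), and the ROR core in Arntl, Per3 and Cry2. The windows of Clock, Npas2, Nr1d1 and Nr1d2 held none of the 3, which says only that these letters are not in these windows. Each sequence is written 5′ to 3′ on the strand of its gene. Per1 (chr11:69098699-69098948, plus strand) lies at a start site inside the annotated gene. Per3 (chr4:151044708-151044915, minus strand) also has its start site inside the annotated gene. Only its 208 bases outside the gene are printed, which stop short of that start site. Cry1 is chr10:85185055-85185304 on the minus strand. Of Arntl, whose windows held further ROR cores upstream, only the 30 bases around the ROR core just after a start site are shown (chr7:113207529-113207558, plus strand).
Per1: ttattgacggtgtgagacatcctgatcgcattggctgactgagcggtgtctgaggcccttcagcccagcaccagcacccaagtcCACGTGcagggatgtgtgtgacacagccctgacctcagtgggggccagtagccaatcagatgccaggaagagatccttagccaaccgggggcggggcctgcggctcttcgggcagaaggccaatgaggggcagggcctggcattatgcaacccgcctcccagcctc
Per3: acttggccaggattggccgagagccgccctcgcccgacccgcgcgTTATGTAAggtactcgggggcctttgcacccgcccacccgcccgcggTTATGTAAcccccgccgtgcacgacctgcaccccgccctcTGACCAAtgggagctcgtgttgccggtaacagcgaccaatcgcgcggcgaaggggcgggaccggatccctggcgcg
Cry1: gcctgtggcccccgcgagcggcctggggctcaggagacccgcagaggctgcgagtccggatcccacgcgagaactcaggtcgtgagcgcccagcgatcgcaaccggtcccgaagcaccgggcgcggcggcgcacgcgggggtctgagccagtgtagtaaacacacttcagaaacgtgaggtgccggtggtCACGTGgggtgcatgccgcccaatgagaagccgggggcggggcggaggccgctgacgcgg
Arntl: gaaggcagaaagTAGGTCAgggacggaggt

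All 9 genes differed somewhere among the 9 groups, with adjusted p between 2.74e-06 (Per3) and 0.0255 (Per1), against 40.2% of all genes. The call of Per1 ended without replicate 2 of TAC JQ1 at day 3 (adjusted p = 0.0505) without replicate 2 or 3 of sham at day 28 (0.0524 and 0.0523), and under the trend and robust options of the fit (0.0592). The group means of Nr1d1 spanned 1.21 on the log2 scale (2.32-fold), those of Arntl 1.19 (2.28-fold), Per1 1.14 and Per2 1.08. Cry2 spanned 0.87, Per3 and Cry1 0.78 each, Nr1d2 0.52 and Clock 0.40, and the median gene spanned 0.32. The highest group mean of Per1 (9.36), Cry1 (7.98) and Cry2 (9.02) was that of TAC JQ1 at day 3. Their spans therefore rest in part on its replicate 1 (10.27, 8.28 and 9.53) and were not computed without it. The next highest means were 9.26 for Per1 (sham, day 28), 7.97 for Cry1 (TAC JQ1, day 28) and 8.79 for Cry2 (sham, day 11). TAC vehicle at day 11 held the highest group mean of Arntl and Clock and the lowest of Per1, Per2, Per3, Cry1, Cry2 and Nr1d2. Sham at day 28 held the lowest mean of Arntl and Clock and the highest of Per2, Per3 and Nr1d2.

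Arntl, the activator of the loop, averaged 7.56 ± 0.59, 7.52 ± 0.29 and 7.04 ± 0.15 in TAC JQ1 hearts at days 3, 11 and 28. The TAC vehicle hearts averaged 7.37 ± 0.21, 7.85 ± 0.25 and 7.06 ± 0.08, and the sham hearts 7.44 ± 0.36, 7.38 ± 0.12 and 6.66 ± 0.13 (SD, n = 3 each). In the order of levels the 6 groups of days 3 and 11 came first and each overlapped the next. The sixth, TAC vehicle at day 3, did not overlap TAC vehicle at day 28 behind it, and sham at day 28 lay below all other groups with no overlap. Its partner Clock averaged 9.62 ± 0.12, 9.67 ± 0.06 and 9.45 ± 0.14 in TAC JQ1 hearts, 9.74 ± 0.04, 9.82 ± 0.09 and 9.59 ± 0.06 in TAC vehicle hearts, and 9.62 ± 0.15, 9.62 ± 0.08 and 9.42 ± 0.06 in sham hearts. Every neighbouring pair of groups overlapped for Clock, so its order is not resolved by 3 arrays a group.

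Of the Period genes, which encode the repressors that accumulate each day, Per1 averaged 9.36 ± 0.90, 8.43 ± 0.29 and 8.81 ± 0.17 in TAC JQ1 hearts at days 3, 11 and 28. It averaged 8.58 ± 0.28, 8.22 ± 0.04 and 9.03 ± 0.21 in TAC vehicle hearts and 8.47 ± 0.48, 8.76 ± 0.27 and 9.26 ± 0.33 in sham hearts. Neighbouring groups overlapped throughout the order of Per1, whose spread within groups (0.40, pooled SD) was the largest of the 9 genes. Per2 averaged 8.36 ± 0.14, 8.03 ± 0.19 and 8.48 ± 0.14 in TAC JQ1 hearts, 8.30 ± 0.07, 7.77 ± 0.22 and 8.62 ± 0.04 in TAC vehicle hearts, and 8.15 ± 0.20, 8.36 ± 0.11 and 8.85 ± 0.17 in sham hearts. Sham at day 28 lay above all other groups of Per2 with no overlap, and the other neighbours overlapped. Per3 averaged 8.59 ± 0.05, 8.66 ± 0.12 and 8.87 ± 0.13 in TAC JQ1 hearts, 8.59 ± 0.17, 8.47 ± 0.21 and 9.19 ± 0.09 in TAC vehicle hearts, and 9.09 ± 0.15, 9.03 ± 0.09 and 9.25 ± 0.01 in sham hearts. The 3 sham groups and TAC vehicle at day 28 made up the upper 4 places of Per3, although each neighbour overlapped the next.

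The Cryptochrome genes encode the other repressors of the loop. Cry1 averaged 7.98 ± 0.27, 7.72 ± 0.05 and 7.97 ± 0.13 in TAC JQ1 hearts, 7.29 ± 0.08, 7.21 ± 0.15 and 7.49 ± 0.08 in TAC vehicle hearts, and 7.46 ± 0.04, 7.45 ± 0.05 and 7.70 ± 0.03 in sham hearts. The 3 TAC JQ1 groups held the upper 3 places of Cry1, of which day 11 overlapped sham at day 28 in the next place. Cry2 averaged 9.02 ± 0.45, 8.66 ± 0.03 and 8.74 ± 0.12 in TAC JQ1 hearts, 8.31 ± 0.18, 8.15 ± 0.12 and 8.49 ± 0.11 in TAC vehicle hearts, and 8.56 ± 0.06, 8.79 ± 0.11 and 8.78 ± 0.02 in sham hearts. The 3 TAC vehicle groups held the lowest 3 places of Cry2, and the groups above them overlapped except between TAC JQ1 at day 11 and sham at day 3.

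Nr1d1, the heme-binding repressor of Arntl, averaged 10.72 ± 0.20, 10.61 ± 0.32 and 10.06 ± 0.10 in TAC JQ1 hearts at days 3, 11 and 28. The TAC vehicle hearts averaged 10.75 ± 0.03, 11.00 ± 0.11 and 11.24 ± 0.28, and the sham hearts 11.13 ± 0.12, 11.27 ± 0.07 and 10.94 ± 0.16. TAC JQ1 at day 28 lay below every other group of Nr1d1 with no overlap. Its paralogue Nr1d2 averaged 10.41 ± 0.12, 10.37 ± 0.13 and 10.55 ± 0.15 in TAC JQ1 hearts, 10.40 ± 0.13, 10.31 ± 0.05 and 10.64 ± 0.03 in TAC vehicle hearts, and 10.81 ± 0.12, 10.71 ± 0.04 and 10.83 ± 0.04 in sham hearts. The 3 sham groups held the upper 3 places of Nr1d2, and on each day the sham arrays lay above all TAC arrays of that day.

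**Figure D1:**
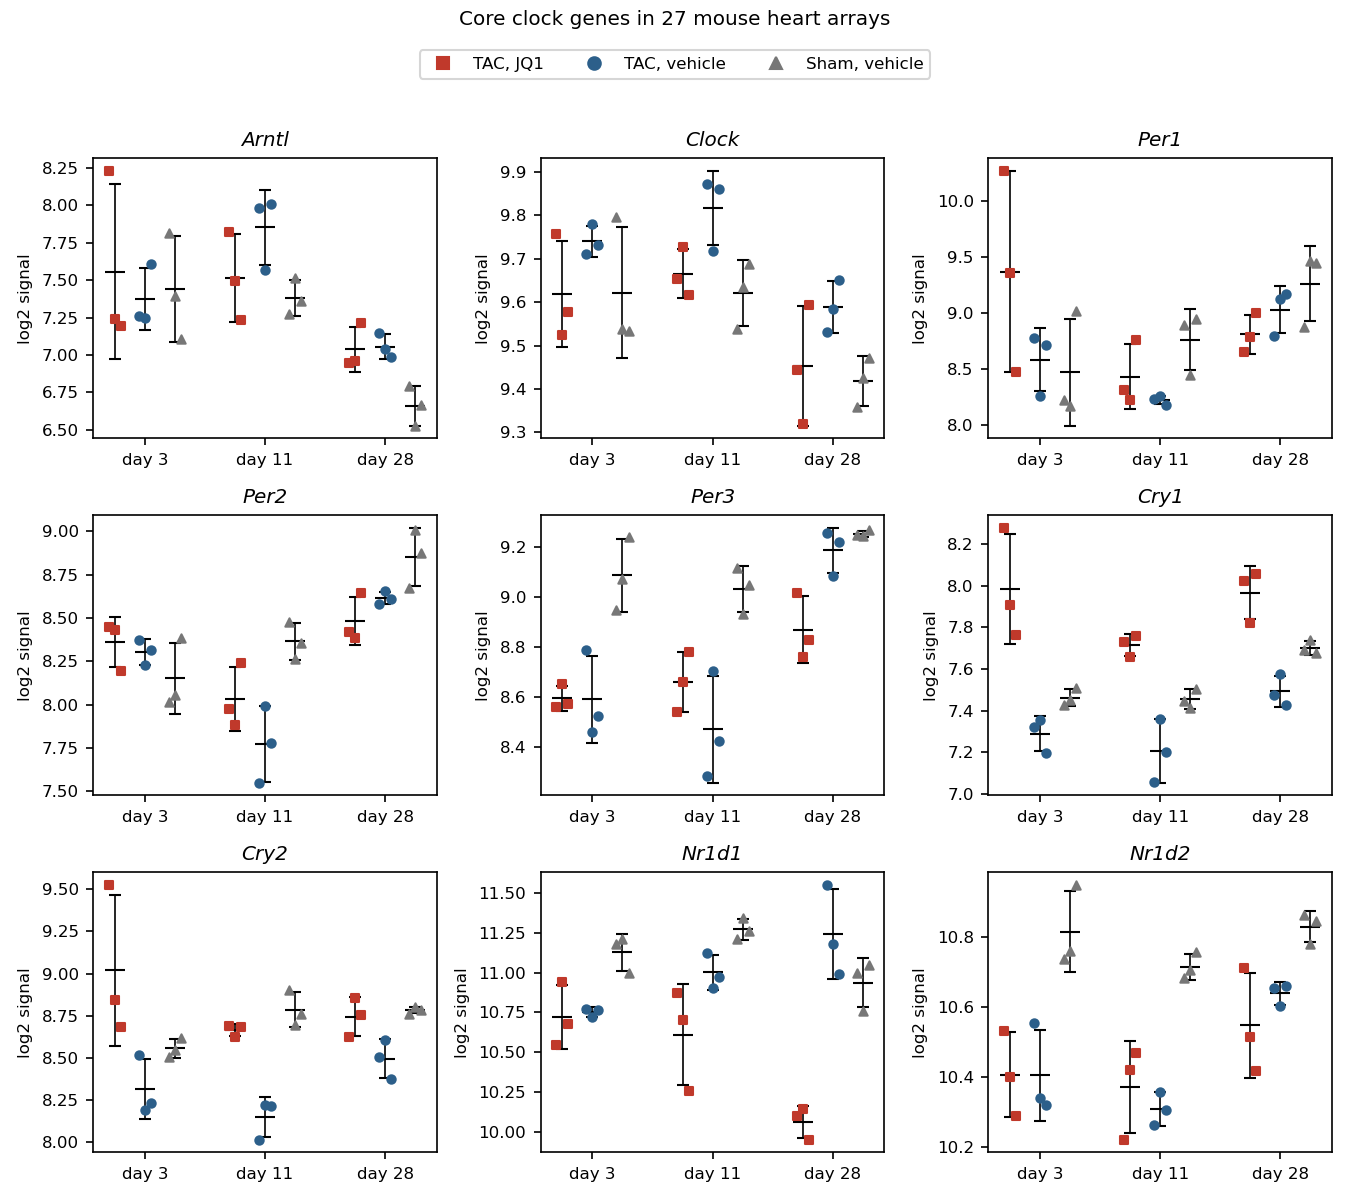
Log2 signal (vertical axes) of 9 core clock genes in each of 27 arrays, by day (horizontal axes), with TAC JQ1 as squares, TAC vehicle as circles and sham vehicle as triangles; black lines are the mean and SD of 3 arrays. Nr1d1 of TAC JQ1 hearts at day 28 (mean 10.06) lies below all other groups, the sham arrays of Nr1d2 lie above all TAC arrays of the same day, and replicate 1 of TAC JQ1 at day 3 is the top array for Arntl, Per1, Cry1 and Cry2.

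Several repressors of the loop were lower after TAC alone. Per3 and Nr1d2 were lower in TAC vehicle than in sham hearts at day 3, and Per2, Per3, Cry2 and Nr1d2 were lower at day 11. None of the 9 genes was called at day 28. The 2 genes called at day 3, both lower, stood against 7.55% of all genes called, 4.22% called higher and 3.33% called lower. At day 11 the 4 called genes, all lower, stood against 15.5% of all genes called, 7.8% called higher and 7.73% called lower. At day 28 no member was called, against 15.1% of all genes (8.13% higher and 6.98% lower).

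At day 3 Per3 measured 8.79, 8.46 and 8.53 in TAC vehicle hearts, against 8.95, 9.08 and 9.24 in sham hearts. The groups did not overlap, and the difference was −0.50 ± 0.10 (1.41-fold lower, adjusted p = 0.00352). Nr1d2 measured 10.55, 10.34 and 10.32 in TAC vehicle hearts, against 10.74, 10.76 and 10.95 in sham hearts, again with no overlap, a difference of −0.41 ± 0.09 (1.33-fold lower, adjusted p = 0.00354). Both calls ended when only these 2 groups were fitted (adjusted p = 0.0724 and 0.0817). The spread is then estimated from 6 arrays, and the cause of the change was not tested. Nr1d1 differed by −0.38 ± 0.14 (adjusted p = 0.104) with no overlap, and Cry1 by −0.17 ± 0.10 (adjusted p = 0.376). Arntl (−0.07 ± 0.21), Clock (0.12 ± 0.08), Per1 (0.11 ± 0.29), Per2 (0.15 ± 0.12) and Cry2 (−0.24 ± 0.14) overlapped between the groups, so 4 of 9 genes did not overlap, against 21.6% of all genes.

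At day 11 the 3 TAC vehicle arrays lay wholly on one side of the 3 sham arrays for each of the 9 genes, which held for 33.4% of all genes. The 9 genes belong to the same loop and were read from the same arrays, so here and in the other counts they are not separate results. Per2 measured 7.55, 7.99 and 7.78 in TAC vehicle hearts, against 8.48, 8.26 and 8.35 in sham hearts, a difference of −0.59 ± 0.12 (1.51-fold lower, adjusted p = 0.00112). Per3 measured 8.28, 8.70 and 8.42 in TAC vehicle hearts, against 9.12, 8.93 and 9.05 in sham hearts, a difference of −0.56 ± 0.10 (1.48-fold lower, adjusted p = 0.000438). In both Period genes replicate 2 of TAC vehicle came closest to the sham arrays. Cry2 measured 8.01, 8.22 and 8.21 in TAC vehicle hearts, against 8.90, 8.70 and 8.76 in sham hearts, a difference of −0.64 ± 0.14 (1.55-fold lower, adjusted p = 0.00197). Nr1d2 measured 10.26, 10.36 and 10.30 in TAC vehicle hearts, against 10.68, 10.71 and 10.76 in sham hearts, a difference of −0.41 ± 0.09 (1.33-fold lower, adjusted p = 0.00155). These 4 calls held under every alternative and without any single array. The other repressors pointed the same way without passing the test: Per1 differed by −0.54 ± 0.29 (adjusted p = 0.27), Cry1 by −0.25 ± 0.10 (adjusted p = 0.0924) and Nr1d1 by −0.27 ± 0.14 (adjusted p = 0.217). The activators lay on the other side, Arntl at 7.98, 7.57 and 8.01 in TAC vehicle hearts against 7.27, 7.51 and 7.36 in sham hearts (0.47 ± 0.21, adjusted p = 0.15), and Clock with a difference of 0.20 ± 0.08 (adjusted p = 0.113). Array weights, which give noisy arrays less say, called 8 of the 9 genes at day 11, with Arntl (adjusted p = 0.00248) and Clock (0.00106) higher. Some of these genes were also called at day 11 under other settings, Clock and Cry1 after quantile normalization (0.0355 and 0.0435), Arntl and Per1 with only these groups fitted (0.0432 and 0.0251), and Cry1 without replicate 2 of TAC vehicle (0.0436).

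By day 28 the differences between TAC vehicle and sham were smaller for the Period genes: −0.23 ± 0.29 for Per1, −0.24 ± 0.12 for Per2 and −0.07 ± 0.10 for Per3 (adjusted p = 0.637, 0.206 and 0.71). Cry1 differed by −0.21 ± 0.10, Cry2 by −0.29 ± 0.14 and Nr1d2 by −0.19 ± 0.09 (adjusted p = 0.165, 0.177 and 0.147), and for these 3 genes and Per2 the groups did not overlap. Arntl measured 7.15, 7.04 and 6.99 in TAC vehicle hearts, against 6.79, 6.53 and 6.66 in sham hearts, with no overlap and a difference of 0.40 ± 0.21 (adjusted p = 0.232). Fitted with only these 2 groups, Arntl and Cry2 were called at day 28 (adjusted p = 0.0145 and 0.0327), and array weights called Arntl, Cry1 and Cry2 (0.0493, 0.0454 and 0.0339). Clock differed by 0.17 ± 0.08 (adjusted p = 0.177) and Nr1d1 by 0.31 ± 0.14 (adjusted p = 0.148), and Nr1d1 was the one repressor whose value was positive. In all 6 of 9 genes did not overlap, against 37.7% of all genes.

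Averaged over the 3 days, 5 of the 9 genes were lower in TAC vehicle than in sham hearts and 1 was higher, against 25.9% of all genes called. Nr1d2 differed by −0.34 ± 0.05 (adjusted p = 1.19e-05), Per3 by −0.38 ± 0.06 (3.23e-05), Cry2 by −0.39 ± 0.08 (0.000521), Cry1 by −0.21 ± 0.06 (0.00637) and Per2 by −0.22 ± 0.07 (0.0167). Clock was higher by 0.16 ± 0.05 (adjusted p = 0.0115), a call that ended when arrays were centred on their medians (adjusted p = 0.0578). Arntl (0.27 ± 0.12), Per1 (−0.22 ± 0.17) and Nr1d1 (−0.11 ± 0.08) were not called. Array weights gave 0.40 for Arntl (adjusted p = 0.000713) and −0.39 for Per1 (0.017), both called and over 1.5 times as large, and −0.35 for Per2. Arntl was also called with only these groups fitted (0.0333) and without replicate 1 of sham at day 3 (0.0453). A test of whether the TAC difference itself varied between days called none of the 9 genes, against 1.31% of all genes. Before adjustment 3 of the 9 had a p under 0.05, against 2867 of all 19937 genes. Per2 came nearest (adjusted p = 0.0556) and was called in 5 of the alternatives, and also without replicate 3 of sham at day 3 or replicate 2 of TAC vehicle at day 11 (adjusted p = 0.0343 and 0.0359).

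With JQ1 the Cryptochromes were higher in TAC hearts, and Nr1d1 was lower at the last day. Cry1 was higher in TAC JQ1 than in TAC vehicle hearts on each of the 3 days, Cry2 was higher at days 3 and 11, and Nr1d1 fell to 0.44 of its TAC vehicle signal at day 28. The 2 genes called at day 3, both higher, stood against 11.9% of all genes called, 4.28% called higher and 7.61% called lower. At day 11 the 2 called genes, again both higher, stood against 16% of all genes called, 7.52% called higher and 8.43% called lower. At day 28 the 3 called genes, 1 higher and 2 lower, stood against 19.6% of all genes called, 7.16% called higher and 12.4% called lower. The groups did not overlap for 2, 3 and 4 of the 9 genes at days 3, 11 and 28, against 23.1%, 36.3% and 35% of all genes. These comparisons share the TAC vehicle arrays with those against sham above, so the signs of the 2 sets of differences are not independent.

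Cry1 at day 3 measured 8.28, 7.91 and 7.77 in TAC JQ1 hearts, against 7.32, 7.35 and 7.20 in TAC vehicle hearts. All 3 JQ1 arrays lay above all 3 vehicle arrays, and the difference was 0.69 ± 0.10 (1.62-fold, adjusted p = 5.51e-05). At day 11 it measured 7.73, 7.66 and 7.76 in TAC JQ1 hearts, against 7.06, 7.36 and 7.20 in TAC vehicle hearts (0.51 ± 0.10, 1.42-fold, adjusted p = 0.000836). At day 28 it measured 8.02, 7.82 and 8.06 in TAC JQ1 hearts, against 7.47, 7.58 and 7.43 in TAC vehicle hearts (0.47 ± 0.10, 1.39-fold, adjusted p = 0.00118). The groups overlapped on none of the days, and the 3 calls held under every alternative. Without replicate 1 of TAC JQ1 the day 3 difference was 0.55 (adjusted p = 0.000308).

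Cry2 at day 3 measured 9.53, 8.84 and 8.69 in TAC JQ1 hearts, against 8.52, 8.19 and 8.23 in TAC vehicle hearts. The groups did not overlap, and the difference was 0.70 ± 0.14 (1.63-fold, adjusted p = 0.0013). It was 0.45 (adjusted p = 0.00523) without replicate 1 of TAC JQ1, and with only these 2 groups fitted the call ended (adjusted p = 0.125). At day 11 Cry2 measured 8.69, 8.63 and 8.68 in TAC JQ1 hearts, against 8.01, 8.22 and 8.21 in TAC vehicle hearts (0.51 ± 0.14, 1.43-fold, adjusted p = 0.0116). All 3 JQ1 arrays at day 11 lay above all 3 of TAC vehicle, and the call ended without replicate 1 of TAC vehicle (adjusted p = 0.065). At day 28 the difference was 0.25 ± 0.14 (adjusted p = 0.194), with a 95% interval of −0.03 to 0.53.

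Nr1d1 at day 3 measured 10.55, 10.94 and 10.68 in TAC JQ1 hearts, against 10.77, 10.72 and 10.77 in TAC vehicle hearts, a difference of −0.03 ± 0.14 with a 95% interval of −0.31 to 0.25, and of 0.06 without replicate 1 of TAC JQ1. At day 11 it measured 10.87, 10.70 and 10.26 in TAC JQ1 hearts, against 11.13, 10.91 and 10.97 in TAC vehicle hearts (−0.39 ± 0.14, adjusted p = 0.0528), with no overlap. It was called after quantile normalization (adjusted p = 0.0319), with the dimmest genes left out (0.0359), under the trend and robust options (0.0465), under array weights (0.00999) and without replicate 1 of TAC JQ1 (0.0209). At day 28 it measured 10.10, 10.14 and 9.95 in TAC JQ1 hearts, against 11.55, 11.18 and 11.00 in TAC vehicle hearts. The lowest vehicle array stood well above the highest JQ1 array, and the difference was −1.18 ± 0.14 (2.27-fold lower, adjusted p = 2.13e-06). This call held under every alternative and without any single array. The JQ1 difference in Nr1d1 differed between the 3 days (moderated F = 18.6, adjusted p = 0.0173), which was so for 1.07% of all genes and for none of the other 8 clock genes. With only the TAC groups fitted that call ended (adjusted p = 0.094). Thra, the thyroid hormone receptor gene whose 3′ end overlaps that of Nr1d1 on the opposite strand, was looked at after these values were known. It differed between TAC JQ1 and TAC vehicle by 0.03 ± 0.06 at day 3, 0.02 ± 0.06 at day 11 and −0.37 ± 0.06 at day 28 (adjusted p = 0.876, 0.851 and 0.000116). Between TAC vehicle and sham Thra differed by −0.15 ± 0.06, −0.28 ± 0.06 and −0.32 ± 0.06 on these days (adjusted p = 0.165, 0.00207 and 0.000648). Whether either probe set lies in the shared bases was not looked at, and a link between the values of Thra and Nr1d1 was not tested.

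**Figure D2:**
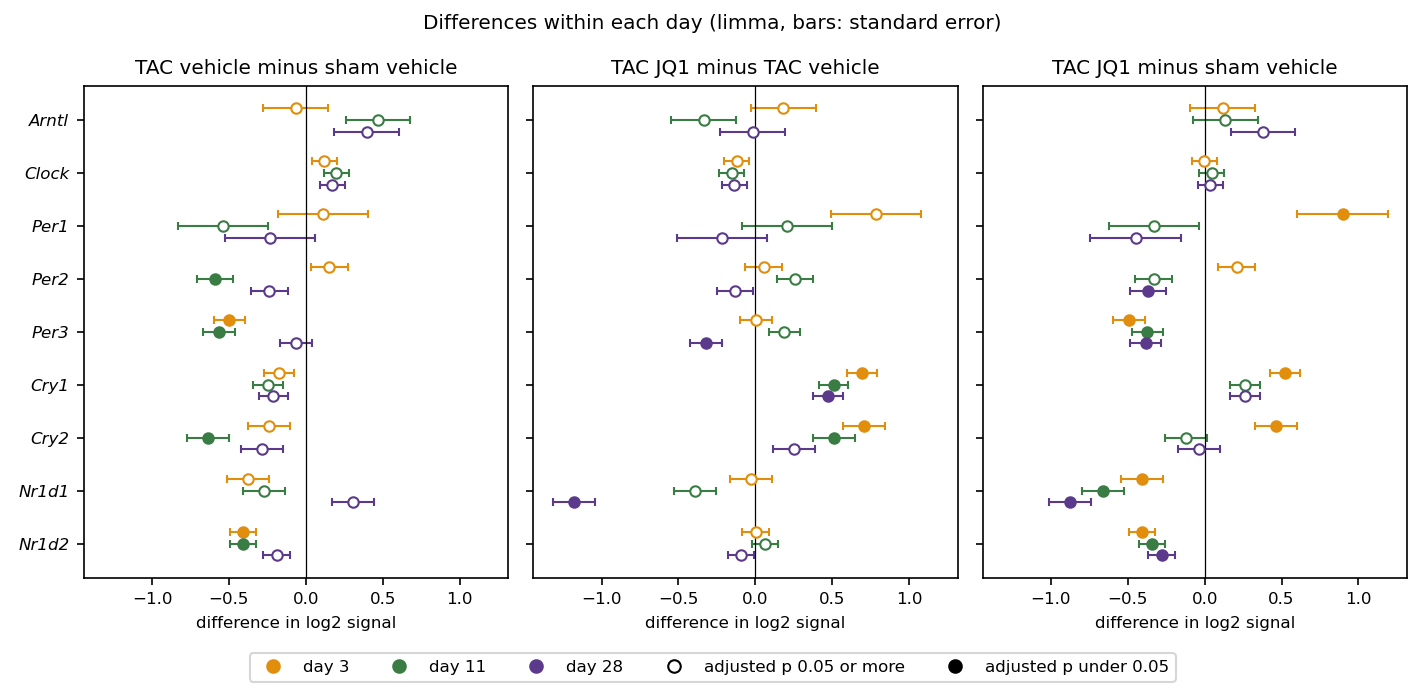
Differences in log2 signal (horizontal axes) of 9 core clock genes (rows) at days 3, 11 and 28, for TAC vehicle minus sham vehicle, TAC JQ1 minus TAC vehicle, and TAC JQ1 minus sham vehicle; bars are standard errors and filled points have an adjusted p under 0.05. Cry1 lies right of 0 on all 3 days under JQ1, at 0.69, 0.51 and 0.47, and Nr1d1 moves left to −1.18 at day 28.

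Per3 measured 9.02, 8.76 and 8.83 in TAC JQ1 hearts at day 28, against 9.26, 9.09 and 9.22 in TAC vehicle hearts. The groups did not overlap, and the difference was −0.32 ± 0.10 (1.25-fold lower, adjusted p = 0.031). That call ended under quantile normalization (adjusted p = 0.129), under array weights (0.1) and with only these 2 groups (0.067), and without replicate 2 or 3 of TAC JQ1 (0.14 and 0.067) or replicate 1 or 3 of TAC vehicle (0.0966 and 0.0888). Per3 was nearly level at day 3 (0.00 ± 0.10) and differed by 0.19 ± 0.10 at day 11 (adjusted p = 0.236). Per1 at day 3 measured 10.27, 9.35 and 8.47 in TAC JQ1 hearts, against 8.77, 8.26 and 8.71 in TAC vehicle hearts. The JQ1 arrays spread over more than 1 log2 unit and overlapped those of TAC vehicle, so the difference of 0.78 ± 0.29 was not called (adjusted p = 0.0905). It was 0.33 (adjusted p = 0.518) without replicate 1 of TAC JQ1 and 1.23 (adjusted p = 0.00267) without replicate 3. At days 11 and 28 Per1 differed by 0.21 ± 0.29 and −0.22 ± 0.29, and Per2 by 0.05 ± 0.12, 0.26 ± 0.12 and −0.13 ± 0.12 on the 3 days, none of them called.

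The activators and Nr1d2 did not pass the test under JQ1 on any day, although at day 11 Clock did after quantile normalization (adjusted p = 0.0441) and, with Per2 and Per3, under array weights (0.0315, 0.015 and 0.0186). Arntl differed by 0.18 ± 0.21, −0.34 ± 0.21 and −0.02 ± 0.21 at days 3, 11 and 28, where the interval at day 28 ran from −0.45 to 0.42. The day 3 value of Arntl turned to −0.16 (adjusted p = 0.673) without replicate 1 of TAC JQ1, so it has no settled direction. Clock differed by −0.12 ± 0.08, −0.15 ± 0.08 and −0.14 ± 0.08, and Nr1d2 by 0.00 ± 0.09, 0.06 ± 0.09 and −0.09 ± 0.09. The day 28 values of the paralogues were −1.18 for Nr1d1 and −0.09 for Nr1d2 with a 95% interval of −0.27 to 0.09, though the difference between the 2 genes was not tested. Over the mean of the 3 days Cry1 (0.56 ± 0.06, adjusted p = 6e-08) and Cry2 (0.49 ± 0.08, 3.54e-05) were higher and Nr1d1 (−0.53 ± 0.08, 1.19e-05) and Clock (−0.14 ± 0.05, 0.0305) lower, against 29.1% of all genes called. The call of Clock ended under centring on array medians (adjusted p = 0.234) and without each of 9 single arrays in turn, with adjusted p up to 0.0758.

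Set against sham, TAC JQ1 hearts had lower Per3, Nr1d1 and Nr1d2 on all 3 days, though 5 of these 9 calls ended under some alternative or without some array. This comparison changes surgery and JQ1 together, so their parts in it cannot be told apart. It shares its sham arrays with TAC vehicle against sham above, so the 2 sets of differences are not independent. At day 3 the 6 called genes, 3 higher and 3 lower, stood against 17.6% of all genes called (6.94% higher and 10.7% lower). At day 11 the 3 called genes, all lower, stood against 10.5% (5.01% higher and 5.51% lower), and at day 28 the 4 called genes, all lower, against 19.9% (7.36% higher and 12.6% lower). The groups did not overlap for 5, 6 and 6 of the 9 genes on the 3 days, against 26.6%, 32.6% and 33.3% of all genes. Per3 differed by −0.49 ± 0.10, −0.37 ± 0.10 and −0.38 ± 0.10 at days 3, 11 and 28 (adjusted p = 0.00141, 0.0203 and 0.00862), and Nr1d2 by −0.41 ± 0.09, −0.35 ± 0.09 and −0.28 ± 0.09 (0.00139, 0.00933 and 0.0198). Nr1d1 measured 10.10, 10.14 and 9.95 in TAC JQ1 hearts at day 28, against 11.00, 10.76 and 11.05 in sham hearts, with no overlap. Its differences were −0.41 ± 0.14, −0.66 ± 0.14 and −0.88 ± 0.14 on the 3 days (adjusted p = 0.0411, 0.00224 and 5.31e-05). The day 3 value of Nr1d1 was −0.16 under array weights (adjusted p = 0.292) and its call also ended after centring on array medians (0.0715). Per2 was lower at day 28 (−0.37 ± 0.12, adjusted p = 0.0295), a call that ended without replicate 2 or 3 of sham (0.16 and 0.0822) and without replicate 1 or 2 of TAC JQ1 (0.109 and 0.107). With only these groups fitted, Per2 and Nr1d2 were not called at day 28 (0.0554 and 0.0752). Per2 at day 11 (−0.33 ± 0.12, adjusted p = 0.079) was called under array weights (0.00403) and without replicate 3 of TAC JQ1 (0.0318). The call of Per3 at day 11 ended without replicate 1 or 2 of TAC JQ1 (0.121 and 0.0617) or replicate 1 or 3 of sham (0.0972 and 0.0581), and that of Nr1d2 at day 28 without replicate 2 or 3 of TAC JQ1 (0.0607 and 0.112) or replicate 1 or 3 of sham (0.0667 and 0.0628). Nr1d2 at day 11 was not called without replicate 1 of TAC JQ1 (adjusted p = 0.0863).

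Cry1 was above sham in TAC JQ1 hearts at day 3 (0.52 ± 0.10, adjusted p = 0.000511) and differed by 0.26 ± 0.10 at days 11 and 28 (adjusted p = 0.0939 and 0.0596), with no overlap of arrays on any day. At day 28 Cry1 was called after quantile normalization (0.0231), with the dimmest genes left out (0.037), under array weights (0.0142) and without replicate 2 of TAC JQ1 (0.0269), and at day 11 under array weights (0.00739) and with only these groups fitted (0.0343). Cry2 was above sham at day 3 (0.46 ± 0.14, adjusted p = 0.0201) and differed by −0.12 ± 0.14 at day 11 and −0.04 ± 0.14 at day 28. Per1 was above sham at day 3 by 0.90 ± 0.29 (adjusted p = 0.0363), although the arrays overlapped. Under array weights Per1 differed by 0.37 (adjusted p = 0.151) and Cry2 by 0.25 (0.021), and the trend and robust options ended the call of Per1 (0.0584). Without replicate 1 of TAC JQ1 the day 3 differences from sham were −0.22 for Arntl, against 0.12 with it (neither called), 0.37 for Cry1 (adjusted p = 0.00429), 0.21 for Cry2 (0.188), 0.44 for Per1 (0.323) and −0.32 for Nr1d1 (0.195), and 3 genes rather than 6 were called. The calls of Per1, Cry2 and Nr1d1 also ended without replicate 1 of sham (0.135, 0.0657 and 0.115) or replicate 2 of sham (0.143, 0.0508 and 0.125), that of Per1 without replicate 2 of TAC JQ1 (0.0749) and that of Nr1d1 without replicate 3 of TAC JQ1 (0.0944). With only these 2 groups fitted, Per3 alone was called at day 3. Over the mean of the 3 days Nr1d1 (−0.65 ± 0.08), Per3 (−0.42 ± 0.06) and Nr1d2 (−0.35 ± 0.05) were below sham and Cry1 (0.35 ± 0.06) above it, with adjusted p between 8.34e-07 and 3.52e-05, against 29.9% of all genes called. Per2 (−0.16 ± 0.07, adjusted p = 0.0777) was called under array weights (0.00172) and without each of 4 single arrays, with adjusted p down to 0.03.

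Sham hearts were not level over time. Per2 measured 8.67, 9.01 and 8.87 in sham hearts at day 28, against 8.01, 8.06 and 8.39 at day 3. The days did not overlap, and the difference was 0.70 ± 0.12 (1.62-fold, adjusted p = 0.0125), where 0.0803% of all genes were called. Per2 was also the 1 gene of the 9 whose sham level differed among the 3 days (moderated F = 18.2, adjusted p = 0.0313), against 0.0652% of all genes. The day 28 call ended without replicate 1 or 2 of sham at day 3 (adjusted p = 0.162 and 0.066), without replicate 2 or 3 at day 28 (0.2 and 0.13), and with only these groups fitted (0.206). The call over the 3 days ended without each of these 4 arrays and without replicate 2 or 3 of sham at day 11, with adjusted p between 0.0554 and 0.387. Arntl measured 6.79, 6.53 and 6.66 in sham hearts at day 28, against 7.82, 7.40 and 7.11 at day 3, with no overlap and a difference of −0.78 ± 0.21 (adjusted p = 0.202). Clock differed by −0.20 ± 0.08 (adjusted p = 0.464), also with no overlap, and 6 of the 9 genes did not overlap between these days, against 15.7% of all genes. Between days 28 and 11 Arntl differed by −0.72 ± 0.21 and Per2 by 0.49 ± 0.12 (adjusted p = 0.779 and 0.475), and 0 of the 9 genes and 2 of all 19937 (0.01%) were called by limma. Before adjustment 6 of the 9 genes had a p under 0.05 there, against 794 of all 19937. Between days 28 and 3 the counts before adjustment were 5 of the 9 and 1558 of all genes. Between days 11 and 3 limma called 0 of all genes. Before adjustment 1178 genes had a p under 0.05, and 0 of the 9 clock genes were among them. Array weights called Arntl at day 28 against both earlier sham days (adjusted p = 0.00756 and 0.0185). The day of collection and the hour of collection cannot be told apart in these groups.

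Arntl and Per2 ran opposite to each other over the 27 arrays, as a description with no test. The Pearson correlation of their levels was −0.77, and the arrays of all 9 groups enter it. Arntl went with Clock (0.81) and against Per3 (−0.71) and Nr1d2 (−0.54), and its correlation with Nr1d1 was 0.13. Within the repressors Per3 went with Nr1d2 (0.90), Cry1 with Cry2 (0.82) and Per1 with Per2 (0.75), while Cry1 ran against Nr1d1 (−0.60). Points of one group share surgery, treatment and day, so these values reflect differences between groups as well as between arrays. Replicate 1 of TAC JQ1 at day 3, the highest array of Arntl, Per1, Cry1 and Cry2, enters them, and they were not computed without it.

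**Figure D3:**
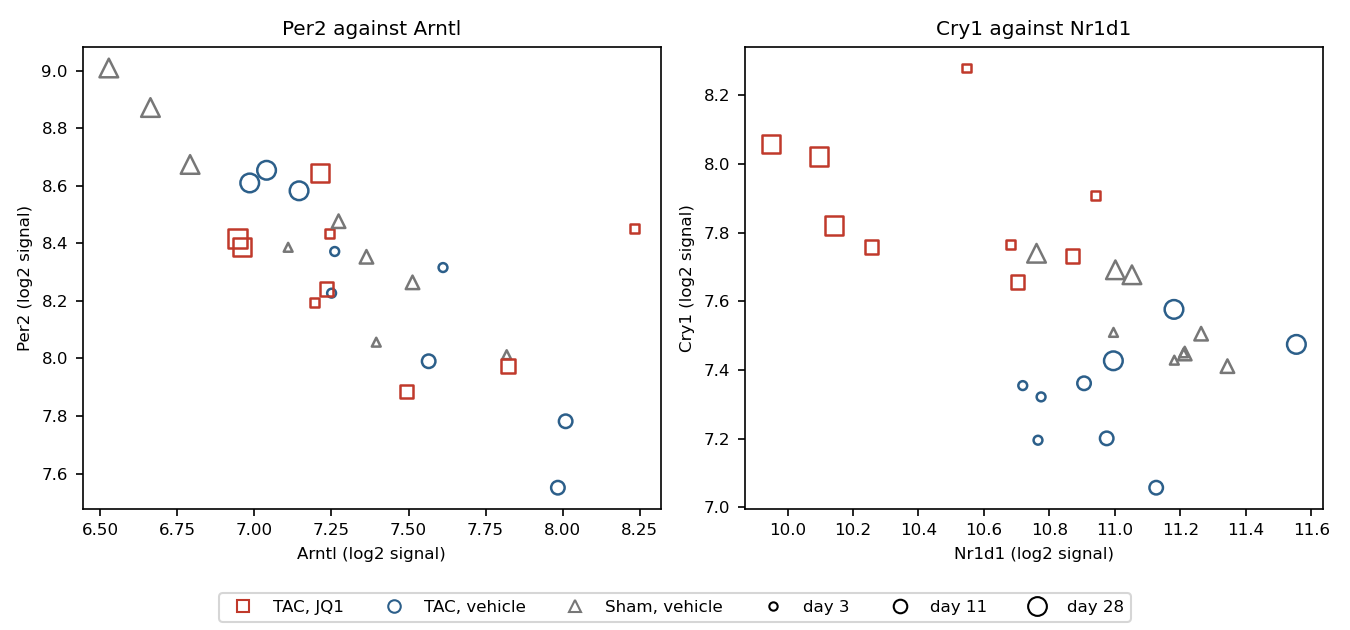
Log2 signal of Per2 against Arntl (left) and of Cry1 against Nr1d1 (right) in 27 arrays, with TAC JQ1 as squares, TAC vehicle as circles and sham as triangles, and larger symbols for later days. Per2 falls as Arntl climbs (r = −0.77), with 1 TAC JQ1 array of day 3 (Arntl 8.23) off the band, and the TAC JQ1 arrays of day 28 lie at the lowest Nr1d1 and high Cry1.

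To remove the group differences, each array was expressed as its deviation from its group mean and set against Arntl, in 8 relations with p from 100000 permutations within groups (2-sided). Clock deviated with Arntl (r = 0.64, p = 0.00984, adjusted p = 0.0394; rho = 0.58, p = 0.0134, adjusted p = 0.0535), with the same sign in 18 of 27 arrays. Per3 deviated against it (r = −0.54, p = 0.00526, adjusted p = 0.0394; rho = −0.59, p = 0.00698, adjusted p = 0.0535), with the opposite sign in 18 of 27 arrays. Both rank correlations miss the threshold after adjustment. Without the 2 arrays farthest in Arntl, replicate 1 of TAC JQ1 and replicate 1 of sham at day 3, r was 0.47 for Clock and −0.58 for Per3. Leaving out single arrays gave between 0 and 3 called relations, and none was called after arrays were centred on their medians. Without replicate 1 of TAC JQ1 at day 3 Clock was not called (r = 0.54, adjusted p = 0.0749), while Nr1d1 (r = 0.56, adjusted p = 0.0332) and Nr1d2 (r = −0.62, adjusted p = 0.0456) were, with p from the same permutations. Without that array r turned from positive to negative for Per1 (−0.40), Cry1 (−0.37) and Cry2 (−0.28). With all arrays the other 6 genes were not called, with r between −0.28 (Per2) and 0.45 (Cry2) and adjusted p of 0.652 or more.

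The other genes of the clock were read from a list of 19, of which 17 were measured. Under TAC at day 3 the list held 2 lower members of 17 (3.33% of all genes were called lower), Hlf (−0.55 ± 0.09, adjusted p = 0.000511) and Tef (−0.34 ± 0.09, 0.0205), which encode activators at D-boxes. At day 11 it held 7 lower and 1 higher, against 7.73% of all genes called lower and 7.8% higher, and the arrays of 13 of the 17 did not overlap, against 33.4% of all genes. Among them Ciart, a repressor of the ARNTL and CLOCK pair, measured 8.51, 8.60 and 8.13 in TAC vehicle hearts, against 9.45, 9.56 and 9.92 in sham hearts (−1.23 ± 0.24, adjusted p = 0.000691). Hlf (−0.88 ± 0.09, 6.14e-07), Usp2 (−0.66 ± 0.10, 8.12e-05), a ubiquitin protease under clock control, and Tef (−0.48 ± 0.09, 0.000687) were lower as well. At day 28 it held 4 lower, against 6.98% of all genes, Usp2 (−0.56 ± 0.10), Tef (−0.44 ± 0.09), Hlf (−0.43 ± 0.09) and Csnk1e (−0.19 ± 0.06), a kinase of the PER proteins, with adjusted p between 0.000475 and 0.0338. The median difference of the list was 0.03, −0.11 and −0.07 at days 3, 11 and 28, beside −0.03, 0.01 and −0.05 over all genes, which shows the balance of directions and not the size of the changes. The calls of Tef at day 3 and Csnk1e at day 28 ended without some single arrays.

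Under JQ1 the same list held 2 higher members of 17 at day 3, 4 higher and 1 lower at day 11, and 1 higher and 3 lower at day 28. Of all genes 11.9%, 16% and 19.6% were called on these days, shares near those of the list at days 3 and 28. Ciart measured 10.00, 10.08 and 9.61 in TAC JQ1 hearts at day 3, against 9.15, 8.64 and 8.31 in TAC vehicle hearts, with no overlap (1.2 ± 0.24, adjusted p = 0.00144), and it was 0.93 ± 0.24 higher at day 11 (0.00854). Hlf was higher by 0.47 ± 0.09 at day 3 (adjusted p = 0.00113) and by 0.81 ± 0.09 at day 11 (3.56e-06), where Usp2 (0.43 ± 0.10, 0.00537) and Tef (0.34 ± 0.09, 0.0132) were higher too. At day 28 Bhlhe41, which encodes a repressor at E-boxes, measured 8.05, 8.04 and 8.18 in TAC JQ1 hearts, against 9.10, 8.88 and 9.01 in TAC vehicle hearts (−0.91 ± 0.13, adjusted p = 2.09e-05). Its paralogue Bhlhe40 was lower by −0.67 ± 0.17 (0.00813), Btrc, a subunit of the ligase that marks PER proteins for decay, by −0.24 ± 0.06 (0.00939), and Nfil3, the repressor at D-boxes, was higher by 0.50 ± 0.10 (0.00122). The calls of Ciart and Tef at day 11 and of Bhlhe40 at day 28 ended without some single arrays, and the others named here held without any one array. The medians of the list were 0.04, 0.06 and −0.06 on the 3 days, beside 0.02, −0.05 and 0.06 over all genes. In the promoter windows the E-box letters were found in Bhlhe41, Ciart (at 3 places) and Tef, of 13 listed genes with a window.

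**Figure D4:**
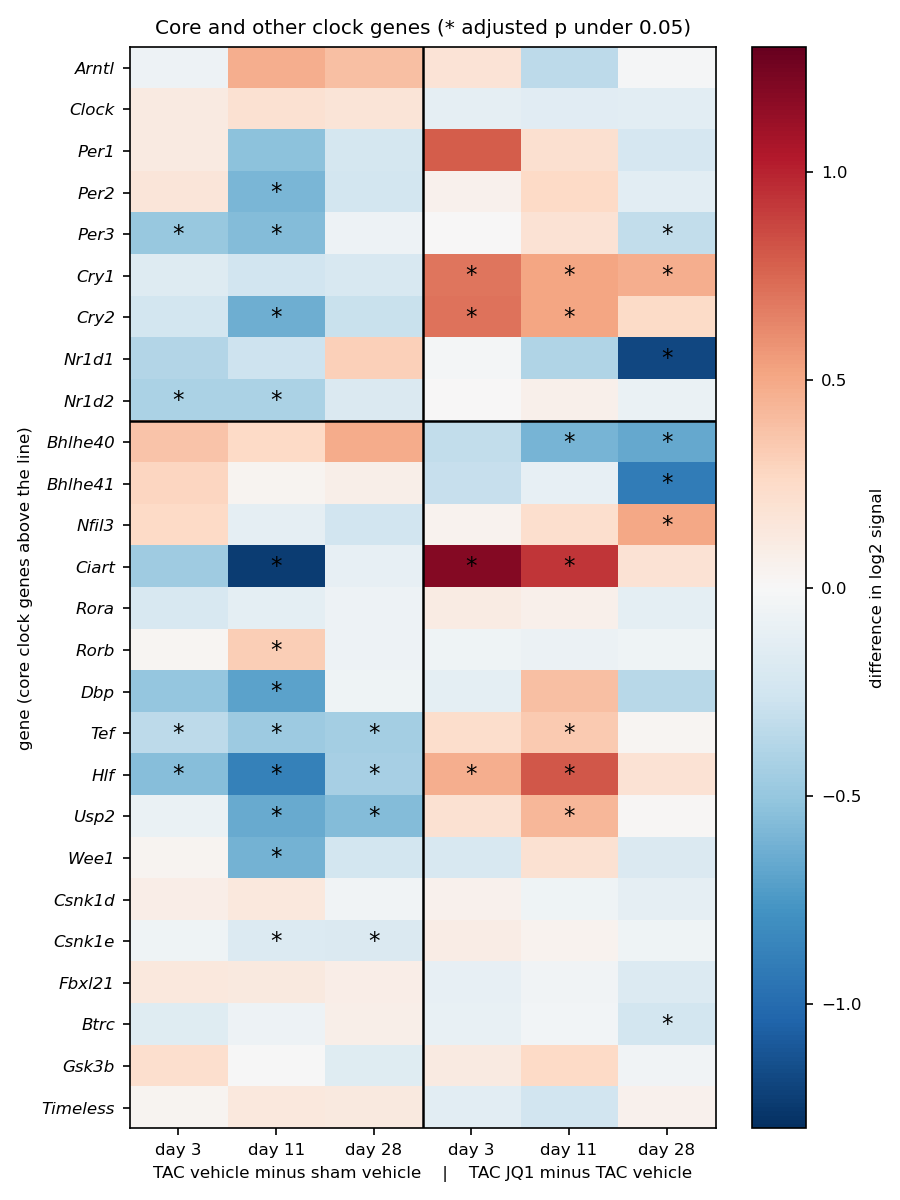
Differences in log2 signal (colour) of 9 core clock genes (above the line) and 17 other clock genes (rows), for TAC vehicle minus sham vehicle and TAC JQ1 minus TAC vehicle at days 3, 11 and 28 (columns); stars mark an adjusted p under 0.05. The day 11 TAC column holds 4 core and 8 other stars, and Ciart carries the strongest colour at −1.23 there and 1.2 under JQ1 at day 3.

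Compared with sham, TAC JQ1 hearts had 3 higher and 2 lower of the 17 at day 3, 0 at day 11 and 6 lower at day 28, against 17.6%, 10.5% and 19.9% of all genes called, the last with Bhlhe41 (−0.83 ± 0.13), Usp2 (−0.55 ± 0.10), Tef (−0.41 ± 0.09) and Csnk1e (−0.25 ± 0.06) in front (adjusted p between 4.36e-05 and 0.00379). At day 3 Ciart (0.74 ± 0.24) and Gsk3b (0.33 ± 0.09), a kinase that acts on several clock proteins, were higher, and Dbp (−0.62 ± 0.21) and Btrc (−0.26 ± 0.06) lower (adjusted p between 0.00659 and 0.038). Dbp, a classical output of the loop, measured 8.72, 10.01 and 10.05 in TAC JQ1 hearts at day 3, against 10.03, 10.23 and 10.39 in sham hearts. Replicate 1, the array that stood apart for Per1, was the lowest of these 6, and without it the difference in Dbp was −0.19 (adjusted p = 0.325). Without it the calls of Ciart (0.69, adjusted p = 0.104), Gsk3b (0.27, 0.0669) and Btrc (−0.18, 0.0581) ended too, and 0 higher and 1 lower of the 17 were called at day 3.

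Per1 is a direct target of the glucocorticoid receptor, and 9 other genes known to respond to glucocorticoids were measured. Under TAC 1 was lower at day 3, 2 were lower and 1 higher at day 11, and 1 was lower and 1 higher at day 28. Of all genes 3.33%, 7.73% and 6.98% were called lower on these days, and 4.22%, 7.8% and 8.13% higher. Under JQ1 3 of the 9 were higher at day 3 and 3 at day 11, against 0 at day 28, where 4.28%, 7.52% and 7.16% of all genes were called higher. The 3 genes of day 3, named after their values were seen, were Mt1 (0.79 ± 0.17), Mt2 (0.72 ± 0.18) and Fkbp5 (0.92 ± 0.30), with adjusted p between 0.00271 and 0.0428. Without replicate 1 of TAC JQ1, Mt2 (0.66, adjusted p = 0.0541) and Fkbp5 (0.43, 0.347) were not called. The mean level of all 9 genes at day 3 ranged from 10.09 to 11.11 over the TAC JQ1 arrays, highest in replicate 1, against 9.88 to 10.28 over the TAC vehicle arrays and 10.09 to 10.21 over the sham arrays. Replicate 1 is the array with the highest Per1, and the part of any glucocorticoid response in the clock values was not tested.

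Calls were also found among markers of cell types. Of all genes 4.22%, 7.8% and 8.13% were called higher under TAC at days 3, 11 and 28, and 3.33%, 7.73% and 6.98% lower. Under JQ1 these shares were 4.28%, 7.52% and 7.16% higher, and 7.61%, 8.43% and 12.4% lower. A count of 1 among 5 to 8 markers cannot be set apart from such shares. Of 7 macrophage markers 3, 7 and 7 were higher in TAC vehicle than in sham hearts at days 3, 11 and 28, and 5, 5 and 4 were lower in TAC JQ1 than in TAC vehicle hearts. Their mean level at day 11 was 9.32 to 9.47 over the TAC JQ1 arrays, 9.76 to 9.92 over the TAC vehicle arrays and 9.12 to 9.21 over the sham arrays, and at day 28 it was 9.52 to 9.95, 10.03 to 10.35 and 8.98 to 9.14. Of 7 fibroblast markers 2, 5 and 7 were higher under TAC and 3 were lower under JQ1 on each day, with a mean level at day 28 of 9.79 to 10.14 in TAC JQ1, 10.07 to 10.58 in TAC vehicle and 9.46 to 9.51 in sham hearts. Without replicate 1 of TAC JQ1 2 macrophage markers, 1 fibroblast marker and 1 endothelial marker were lower under JQ1 at day 3, against 4.89% of all genes. Of 6 endothelial markers 2 at day 11 and 1 at day 28 were higher under TAC, and 2, 2 and 5 were lower under JQ1. Of 5 smooth muscle markers 2 at day 3 and 1 at day 11 were higher under TAC and 1 at day 28 was lower, and none of 5 fat markers was called under TAC. Under JQ1 1 smooth muscle marker was higher at day 11, and 2 smooth muscle markers and 1 fat marker were lower at day 28. Of 8 cardiomyocyte markers 1 at day 11 and 2 at day 28 were lower under TAC, and 1 was higher under JQ1 at day 11. None was called under TAC or JQ1 at day 3. Their mean level at day 28 was 13.35 to 13.41 in TAC JQ1, 13.34 to 13.40 in TAC vehicle and 13.48 to 13.51 in sham hearts. In whole tissue, fewer cells of a type and less RNA per cell cannot be told apart, and the part of these shifts in the clock differences was not tested.

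Other genes whose levels followed the clock genes most closely were picked by correlation over the 27 arrays, as a description. The closest to Arntl were Clock (0.81), Gsr (0.73), Kdm1a (0.72), Slc7a6 (0.72) and Adgrd1 (0.71), and the most opposed were Ankdd1b (−0.77), Per2 (−0.77), Dbp (−0.76), Pdxk (−0.76) and Map2k6 (−0.71). So 2 of the 5 most opposed of all genes were Per2 and Dbp. The closest to Per2 were Wee1 (0.84), the kinase that holds cells before mitosis and a known E-box target, Timp3 (0.76), Ciart (0.76), Ahnak (0.75) and Per1 (0.75). The closest to Nr1d1 were Med12 (0.86), Arhgef10 (0.85), Agpat2 (0.85), Ap1m1 (0.84) and Parm1 (0.83), none of them on the clock lists.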

How the data were processed

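Heart RNA was converted with the Ambion WT Expression Kit and labelled for Affymetrix arrays, per the labels' protocols. The authors deposited log2 signals for 34760 probe sets on 27 arrays, whose normalization the labels and files do not state. They ran from 1.67 to 14.21 with array medians of 6.954 to 7.043, and were used unchanged. Arrays within a group correlated at 0.974 to 0.994. The number of arrays limits the precision. Among the tools in the submitters' processing notes is limma, without its version.

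In the platform annotation 21640 probe sets listed 1 gene, 1321 several and 11799 none, and only the first were used. Where a gene had several (954 genes), its brightest on average was taken, leaving 19937 genes. Group means were fitted with limma 3.58.1 in R 4.3.3 (18 residual and 4.9 prior degrees of freedom), after the script was tested on simulated data. Groups came from the sample titles.

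Replicate numbers recur across groups. Of 27 same-numbered pairs of arrays 7 correlated above 0.1 in their deviations from group means (median 0.002), so the numbers were not taken as pairing. The members and gene lists were chosen with earlier results of these data known. The text names all members, up to 4 called genes of the clock list per comparison (smallest p first), the genes most like Arntl, Per2 and Nr1d1, and Hexim1 and Nppa as checks. Others are marked as chosen after their values were seen. Alternatives were quantile normalization, median centring, omission of the dimmest genes, averaging of probe sets, the robust and trend options of eBayes, array weights, a fit to the compared groups alone, a replicate block, and omission of each array.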

Additional observations from a re-analysis of the deposited data

Results flagged for a closer look

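The JQ1 difference (TAC JQ1 minus TAC vehicle) was not the same on the 3 days for 3 clock genes, by the moderated F test of limma. For Nr1d1 (adjusted p = 0.0173) it was −0.03 ± 0.14 at day 3, −0.39 ± 0.14 at day 11 and −1.18 ± 0.14 at day 28, and the call ended when the sham arrays were left out of the fit (adjusted p = 0.094). For Hlf (adjusted p = 0.0441) it was 0.47 ± 0.09, 0.81 ± 0.09 and 0.19 ± 0.09. For Bhlhe41 (adjusted p = 0.0492) it was −0.30 ± 0.13, −0.10 ± 0.13 and −0.91 ± 0.13. The F tests of Hlf and Bhlhe41, both just under the threshold, were not repeated under the alternatives or without single arrays. The TAC difference gave no such call among the 26 clock genes measured.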

How the results depend on the processing

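Over all alternatives, 3148 of 3389 values of single clock genes kept their direction and side of the threshold, 102 lost a call, 65 gained one and 74 changed sign, of which 0 were called before or after. Counts of called core clock genes that changed by over 1.5 times were these, and the cause was not tested. Array weights gave 8 genes for TAC vehicle against sham at day 11 (4 as reported) and 3 at day 28 (0), 6 for TAC JQ1 against TAC vehicle at day 11 (2), and 5 for TAC JQ1 against sham at day 11 (3). They gave 4 for the TAC difference by day (0), 2 for the JQ1 difference by day (1), 3 for sham by day (1), 3 for sham day 28 against day 3 (1) and 2 against day 11 (0). Fitting only the compared groups, which leaves fewer arrays to estimate the spread, gave 0 for TAC against sham at day 3 (2) and 2 at day 28 (0), 1 for JQ1 against TAC vehicle at day 3 (2), and 1 for JQ1 against sham at day 3 (6). It gave 2 for TAC by day, and 0 for JQ1 by day, sham by day, and sham day 28 against day 3. Quantile normalization gave 4 for JQ1 against TAC vehicle at day 11 and 1 for TAC by day, and omission of the dimmest genes and the trend option gave 1 for TAC by day. Of the relations with Arntl, 0 were called after median centring and 1 under the replicate block, against 2 as reported. The replicate block also ended the call of Per2 for TAC JQ1 against sham at day 28 (adjusted p = 0.0534) and that of Clock with Arntl (0.0641), and changed no other call, and 9 of 27 arrays correlated best with their own number. Leaving out single arrays gave 1 to 3 genes for JQ1 against TAC vehicle at day 11, 3 to 6, 1 to 4 and 2 to 3 for JQ1 against sham at days 3, 11 and 28, 0 to 1 for TAC by day, sham by day and sham day 28 against day 3, and 0 to 3 relations with Arntl.

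The sign changes touched 29 results, and the cause was not tested. Quantile normalization gave −0.00685 for Nr1d2 (TAC JQ1 against TAC vehicle, day 3), 0.00904 for Cry2 (JQ1 against sham, day 28), and in sham 0.00279 for Cry1 (day 11 against 3) and −0.00178 for Nr1d2 (day 28 against 3). Median centring gave 0.0237 for Nr1d1 (JQ1 against TAC vehicle, day 3), 0.0169 for Arntl (day 28), and 0.0111 for Per3 and 0.0443 for Nr1d2 (mean of days). It gave 0.0489 for Clock (JQ1 against sham, day 3), in sham 0.0151 for Clock and 0.00896 for Cry1 (day 11 against 3) and 0.00617 for Cry2 (day 28 against 11), and r = 0.0282 for Nr1d2 with Arntl. Array weights gave 0.183 for Arntl, −0.228 for Per1 and −0.00185 for Per2 (TAC against sham, day 3), and −0.0983 for Arntl, 0.115 for Nr1d1 and −0.0378 for Nr1d2 (JQ1 against TAC vehicle, day 3). They gave 0.0014 for Per3 (JQ1 against TAC vehicle, mean), −0.223 for Per1 and −0.00116 for Cry2 (JQ1 against sham, mean), and in sham 0.134 for Arntl, 0.0231 for Clock and −0.0611 for Per1 (day 11 against 3) and −0.093 for Nr1d2 (day 28 against 3).

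Leaving out single arrays gave these ranges where a sign changed. For TAC against sham at day 3 they were −0.233 to 0.122 for Arntl and −0.0364 to 0.387 for Per1. For JQ1 against TAC vehicle at day 3 they were −0.155 to 0.363 for Arntl, −0.139 to 0.0582 for Nr1d1, −0.0628 to 0.102 for Per3 and −0.0605 to 0.0767 for Nr1d2, for Arntl at day 28 −0.103 to 0.0299, and over the mean of days −0.169 to 0.00339 for Arntl and −0.0363 to 0.0161 for Nr1d2. For JQ1 against sham they were −0.222 to 0.304 for Arntl and −0.0716 to 0.0843 for Clock at day 3, −0.019 to 0.275 for Arntl at day 11, −0.036 to 0.101 for Clock and −0.0928 to 0.0223 for Cry2 at day 28, and −0.112 to 0.187 for Per1 over the mean. In sham they were −0.224 to 0.131 for Arntl, −0.046 to 0.0853 for Clock, −0.125 to 0.0208 for Per3 and −0.0331 to 0.0157 for Cry1 (day 11 against 3), −0.0249 to 0.0811 for Nr1d2 (day 28 against 3) and −0.0491 to 0.054 for Cry2 (day 28 against 11). For r with Arntl they were −0.397 to 0.417 for Per1, −0.372 to 0.456 for Cry1 and −0.281 to 0.522 for Cry2. In a check chosen after seeing the data, 16 of 36 called single-day differences of the other clock genes and 12 of 23 of the glucocorticoid genes lost their call without some array.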
